A study of Mus musculus with 4 samples.

Results

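The 9 genes described here encode proteins of the red cell and of its precursors. They are the carbonic anhydrases Car1 and Car2, the water channel Aqp1, the reductase Blvrb, the transferrin receptor Tfrc, the globins Hba-a1 and Hbb-b1, and the membrane proteins Ermap and Rhd. They were chosen by name from the 30854 gene rows of an array table, where all 9 had a row, under the names CAR1, CAR2, AQP1, BLVRB, TFRC, HBA-A1, HBB-B1, ERMAP and RHD. They were also chosen with their values known: the genes of the early red cell programme and the globins had been seen to differ in how they behaved on a single knockout array. The values of these 9 genes are therefore given as a description, with no test.

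Each of 4 Illumina bead arrays held RNA of LSK cells, the bone marrow fraction sorted for Kit and Sca-1 and against lineage markers, from C57BL6/J mice aged 12 to 16 weeks. The 2 control arrays (replicates 1 and 2) carried the label control, with no further allele named. The 2 knockout arrays (replicates 1 and 3) came from B-myb floxed-MxCre mice, in which the gene of the cell cycle factor B-Myb (Mybl2) is flanked by recombination sites and the interferon-driven Mx promoter expresses Cre. Mice of both groups had received the interferon inducer pIpC 1 week before harvest, and every array holds a pool of 3 to 5 mice. Mx-Cre acts in many interferon-responsive cells, so the deletion is not limited to LSK cells.

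Red cells form from stem cells through megakaryocyte-erythroid progenitors, which switch on carbonic anhydrases, the transferrin receptor and blood group proteins before they fill with hemoglobin. Carbonic anhydrase interconverts carbon dioxide and bicarbonate, transferrin receptor brings iron into the cell for heme, and globin chains bind that heme to carry oxygen. In LSK cells, transcripts of this programme are known from the few cells that begin to lean toward the erythroid and megakaryocytic fates, while globin transcripts are known above all from erythroblasts and reticulocytes.

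In the knockout LSK cells 5 of the 9 genes were lower than in both controls, on both knockout arrays: Car1, Car2, Aqp1, Blvrb and Ermap. Of the 11538 genes tested below, 28.1% were lower in this way and 22% higher. Car2 and Ermap had a detection p under 0.05 on 1 array each, and on neither knockout array. After normalization, Tfrc and Hbb-b1 were higher than in both controls. Hba-a1 was lower than the controls on 1 knockout array and higher on the other, and Rhd was at background on all 4 arrays. Both globins were highest on knockout replicate 3. In RNA of pooled cells, fewer cells of a type and less RNA per cell cannot be told apart.

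Signal and detection differed between the arrays. A gene counts as above background where its detection p is under 0.05. Such genes numbered 12297 and 13439 in the controls, against 10761 and 8797 on knockout replicates 1 and 3. Mybl2 was at a log2 level of 7.19 and 6.52 in control cells, against 6.72 and 6.62 in knockout cells (difference −0.18 ± 0.28 SE, limma adjusted p = 0.776). The place of its probe in the gene is unknown, so the deletion was not checked by this value, and genotypes are those of the labels. Of the genes behind the sort, Kit had a mean level of 9.88 in control cells, against 9.02 in knockout cells, and Ly6a, which encodes Sca-1, was at 10.27 and 11.22 in control cells, against 10.57 and 10.52 in knockout cells.

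Background-corrected intensities were quantile-normalized, and the log2 levels below are on that scale. Genes above background on at least 2 arrays, 11538 in all, entered a limma fit of knockout minus control. Of the 9 genes, 6 passed that filter, all of them above background on all 4 arrays. Car2, Ermap and Rhd did not pass it. No tested gene had an adjusted p under 0.05 (0% of 11538, lowest adjusted p 0.114), and 1769 had an unadjusted p under 0.05. Of all tested genes, 28.1% were lower in both knockouts than in both controls and 22% were higher, beside 3 and 2 of the 6 tested genes here. Since the genes were chosen from this contrast, nothing is read from these counts. The 2 arrays per genotype limit the precision of every difference, and errors on log2 differences are standard errors of the limma fit.

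For 6 of the 9 genes a RefSeq promoter (GRCm38.p6, from 250 bases before to 50 bases after the start of the gene) was at hand. These are Aqp1, Blvrb, Tfrc, Hba-a1, Ermap and Rhd. Car1, Car2 and Hbb-b1 are named only. Of these promoters, 4 are printed 5′ to 3′ on the strand of the gene: 3 of genes that were lower on both knockout arrays, and that of Hba-a1, which was high on knockout replicate 3. Capitals mark the letters of any of the motifs described after them. Aqp1 is at chr6:55336049-55336348 on the plus strand, Blvrb (the first of its starts in the table) at chr7:27447728-27448027 on the plus strand, Ermap at chr4:119189946-119190245 on the minus strand and Hba-a1 at chr11:32283422-32283721 on the plus strand.
Aqp1: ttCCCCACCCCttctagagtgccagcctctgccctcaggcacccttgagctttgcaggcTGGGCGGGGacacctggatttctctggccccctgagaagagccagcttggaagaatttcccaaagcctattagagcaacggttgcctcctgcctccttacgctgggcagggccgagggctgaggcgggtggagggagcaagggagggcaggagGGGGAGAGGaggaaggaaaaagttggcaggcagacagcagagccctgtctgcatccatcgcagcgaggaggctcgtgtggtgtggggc
Blvrb: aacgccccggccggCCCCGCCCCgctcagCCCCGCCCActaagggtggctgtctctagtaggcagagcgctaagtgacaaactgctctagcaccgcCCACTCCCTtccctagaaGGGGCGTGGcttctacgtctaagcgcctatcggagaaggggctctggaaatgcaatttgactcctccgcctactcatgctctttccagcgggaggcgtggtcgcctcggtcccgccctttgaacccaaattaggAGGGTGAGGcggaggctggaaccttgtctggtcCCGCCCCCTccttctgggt
Ermap: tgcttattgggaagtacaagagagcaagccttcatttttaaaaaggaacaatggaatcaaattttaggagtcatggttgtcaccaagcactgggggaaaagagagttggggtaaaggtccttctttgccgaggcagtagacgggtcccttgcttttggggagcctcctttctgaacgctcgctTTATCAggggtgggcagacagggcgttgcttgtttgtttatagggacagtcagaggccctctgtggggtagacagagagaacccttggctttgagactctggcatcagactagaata
Hba-a1: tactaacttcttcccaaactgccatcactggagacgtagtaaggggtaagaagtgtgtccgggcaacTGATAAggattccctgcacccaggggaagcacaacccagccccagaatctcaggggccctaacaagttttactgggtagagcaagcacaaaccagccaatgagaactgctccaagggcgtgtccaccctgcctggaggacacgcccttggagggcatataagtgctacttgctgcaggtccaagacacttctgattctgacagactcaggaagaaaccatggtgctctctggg

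The motifs searched on both strands were AGATAA and TGATAA, which are forms of the GATA factor motif, CCNCNCCCN, which is that of Klf factors, and CAGATG, an E-box bound by Tal1. Matches that overlap were each counted. The Hba-a1 promoter held 1 TGATAA, whose first base lies 183 bases before the start. The Ermap promoter held 1 TGATAA on the opposite strand, with its first printed base 67 bases before the start. The Rhd promoter held 1 AGATAA, 43 bases before the start. AGATAA or TGATAA occurred in 18.6% of 32851 promoters of the same length, and neither was found in the windows of Aqp1, Blvrb or Tfrc. CCNCNCCCN occurred 3 times in the Aqp1 promoter, 6 times in the printed Blvrb promoter, 5 and 3 times at the 2 starts of Tfrc and 1 time in the Rhd promoter, against at least 1 match in 49.4% of all promoters. It was not found in the windows of Hba-a1, Ermap or the second Blvrb start, so genes that were lower and Tfrc, which was higher, both held it. CAGATG, present in 17.2% of all promoters, was in none of the windows of these 6 genes. The Hba-a1 promoter matched that of its copy Hba-a2 at all 297 bases that align without a gap.

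Car1, a cytosolic carbonic anhydrase of red cell precursors, had deposited intensities of 2131.6 ± 108.9 (bead SE, 55 beads) and 1059.6 ± 60.9 (43 beads) on control replicates 1 and 2. On knockout replicates 1 and 3 they were 291.9 ± 14.5 (53 beads) and 213.9 ± 11.3 (49 beads). The genotypes did not overlap, and the gap between the dimmer control and the brighter knockout exceeded the bead errors of both. After normalization the log2 level of Car1 was 10.46 and 10.01 in control cells, against 8.02 and 7.72 in knockout cells. The difference was −2.36 ± 0.25 (SE), with controls 5.15-fold above knockouts. Of the 11538 tested genes, 11 had a larger fall in log2 level, and 2.32% were at least 2-fold lower without overlap. Car1 was chosen with its fall known, so these figures are a description and no test.

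Car2, a second cytosolic carbonic anhydrase that is found in many tissues, was dimmer. Its intensity was 519.3 and 449.5 in control cells, against 219.3 and 178.8 in knockout cells, with bead errors between 12.4 and 33.7. Both knockout values lay below both control values. Its detection p was 0.00906 on control replicate 1, 0.108 on control replicate 2, 0.426 on knockout replicate 1 and 0.217 on knockout replicate 3, although all 4 intensities exceeded the 95th percentile of the negative controls of their array. By that detection p Car2 counts as measured on 1 of 4 arrays and did not enter the fit. Its log2 level was 8.20 and 8.56 in control cells, against 7.47 and 7.28 in knockout cells, which places controls 2.01-fold above knockouts on this scale alone. Its log2 difference was −1.01, and became −0.76 without background correction, −0.83 without control replicate 2 and −1.94 under median scaling.

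Aqp1, the water channel of the red cell membrane, had intensities of 812.3 ± 45.9 (bead SE) and 463.7 ± 30.4 in control cells, against 193.2 ± 9.4 and 187.4 in knockout cells. The knockout intensities differed from each other by less than their bead errors. Its log2 level was 8.93 and 8.61 in control cells, against 7.17 and 7.41 in knockout cells, a difference of −1.49 ± 0.23 (SE), or controls 2.8-fold above knockouts. As for Car1, the genotypes did not overlap.

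Blvrb, an NADPH-dependent flavin and biliverdin reductase abundant in red cells, was lower in the same way. Its intensity was 754.4 and 648.3 in control cells, against 294.4 and 266.5 in knockout cells. Its log2 level was 8.81 and 9.19 in control cells, against 8.04 and 8.20 in knockout cells, without overlap. The difference was −0.88 ± 0.23 (SE), with controls 1.84-fold above knockouts.

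Ermap, a membrane protein of erythroid cells that carries a blood group antigen in humans, lay near background. Its intensity was 122.2 and 134.5 in control cells, against 98.2 and 100.3 in knockout cells. The 95th percentiles of the negative controls on the same arrays were 94.8, 85.3, 101.5 and 112.8. Ermap exceeded that level on both control arrays and on neither knockout array, and had a detection p under 0.05 on control replicate 2 alone. Its log2 level was 5.32 and 5.94 in control cells, against 4.43 and 4.29 in knockout cells. With knockout arrays set no lower than the lowest value above background, controls were 2.31-fold above knockouts on this scale alone. That is not a lower bound, since control replicate 1 had a detection p of 0.108. Its log2 difference was −1.27, and became −0.43 without background correction, −0.89 with cyclic loess and −0.96 without control replicate 2. Rhd, an Rh blood group protein of the same membrane, had intensities of 86.8, 81.8, 93.5 and 98.8, each at the median of the negative controls of its array (ratios from 0.99 to 1.01). No level or difference can be given for Rhd.

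**Figure D1:**
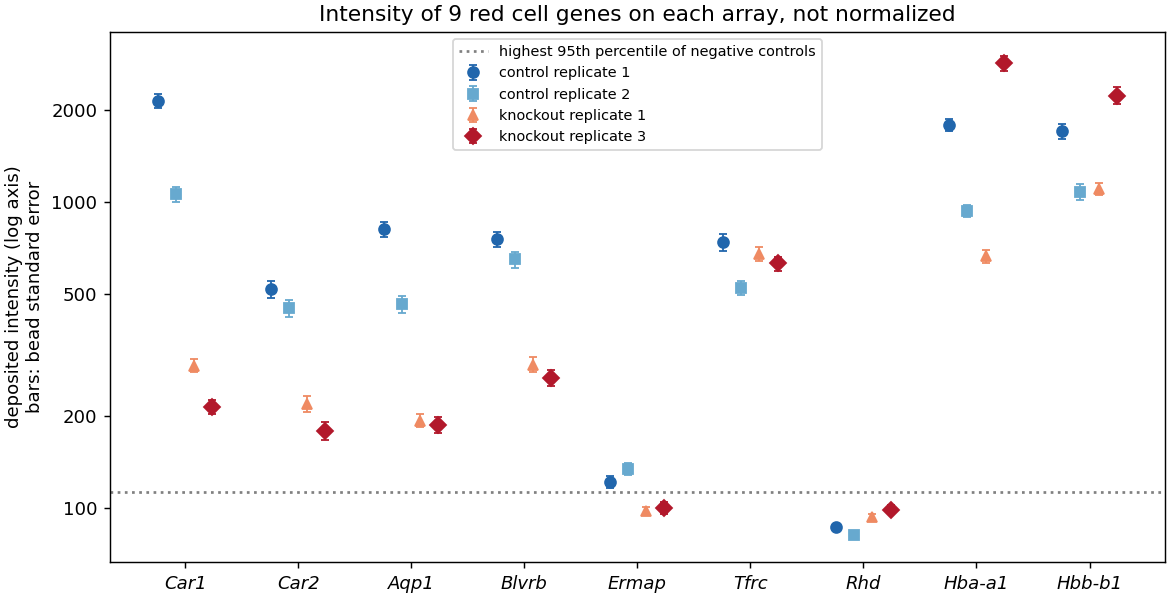
Deposited intensity (log axis, not normalized) of the 9 genes on control replicates 1 and 2 and knockout replicates 1 and 3, with bead standard errors as bars and the highest of the arrays' 95th percentiles of negative controls (112.8) as a dotted line. Car1, Car2, Aqp1, Blvrb and Ermap sit lower on both knockout arrays than on both controls, and Hba-a1 and Hbb-b1 are brightest on knockout replicate 3.

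Tfrc, the transferrin receptor that takes up iron-loaded transferrin, went the other way on the normalized scale. Its intensity was 739.5 ± 47.2 (bead SE) and 523.5 ± 28.8 in control cells, against 676.5 ± 37.0 and 629.2 ± 32.6 in knockout cells, so the genotypes overlapped before normalization. Its log2 level after normalization was 8.78 and 8.84 in control cells, against 9.45 and 9.71 in knockout cells, without overlap. The difference was 0.77 ± 0.21 (SE), with knockouts 1.71-fold above controls, and turned to −0.04 under median scaling, where the median of all tested genes was at −0.70.

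The globins differed between the knockout arrays. Hba-a1, an adult alpha globin gene, had intensities of 1785.2 ± 81.1 (bead SE) and 932.8 ± 43.1 in control cells, 663.6 ± 31.3 on knockout replicate 1, and 2831.7 ± 153.0 on knockout replicate 3. Knockout replicate 1 was the lowest of the 4 arrays and knockout replicate 3 the highest. Its log2 level was 10.18 and 9.76 in control cells, 9.42 on knockout replicate 1, and 11.90 on knockout replicate 3. The genotypes overlapped, and the difference of 0.69 ± 0.77 (SE) was smaller than its error. Leaving out knockout replicate 3 gave −0.55, leaving out knockout replicate 1 gave 1.93, and median scaling gave −0.03.

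Hbb-b1, an adult beta globin gene, had intensities of 1697.3 ± 99.6 (bead SE) and 1079.6 ± 62.5 in control cells, 1104.4 ± 51.2 on knockout replicate 1, and 2220.7 ± 142.0 on knockout replicate 3. Its log2 level was 10.10 and 10.04 in control cells, 10.17 on knockout replicate 1, and 11.57 on knockout replicate 3. Knockout replicate 1 exceeded the higher control by 0.07 only, and knockout replicate 3 stood apart from the other 3 arrays. The difference was 0.80 ± 0.46 (SE), 0.10 without knockout replicate 3 and 0.12 under median scaling.

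Between the knockout arrays, Hba-a1 was 5.58-fold higher and Hbb-b1 2.63-fold higher on replicate 3 than on replicate 1 after normalization, and 4.27 and 2.01 times as bright in the deposited intensities. At least 2-fold higher on knockout replicate 3 were 1.91% of all tested genes, and 0.052% of them differed by more than Hba-a1 and 0.546% by more than Hbb-b1. Both globins also exceeded each of the other 3 arrays by at least 2-fold, as did 0.416% of tested genes. Under median scaling that margin over the next array was 1.47-fold for Hba-a1 and 1.2-fold for Hbb-b1. The globins were chosen with their difference between the knockout arrays known, so these shares are a description and no test. The other 4 tested genes were close on the 2 knockout arrays: replicate 3 minus replicate 1 was −0.30 for Car1, 0.24 for Aqp1, 0.16 for Blvrb and 0.25 for Tfrc on the log2 scale. The 2 control arrays differed by at most 0.45 for the 6 tested genes, with Car1 and Hba-a1 higher on replicate 1 and Blvrb higher on replicate 2.

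Globin genes form clusters of similar copies, which a probe may not separate. The table used here held no row for Hba-a2, and the C57BL6/J genome carries its adult beta globin copies under the names Hbb-bs and Hbb-bt, which also had no row. The rows named Hba-a1 and Hbb-b1 are uncertain in this respect, and may hold signal of those copies.

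**Figure D2:**
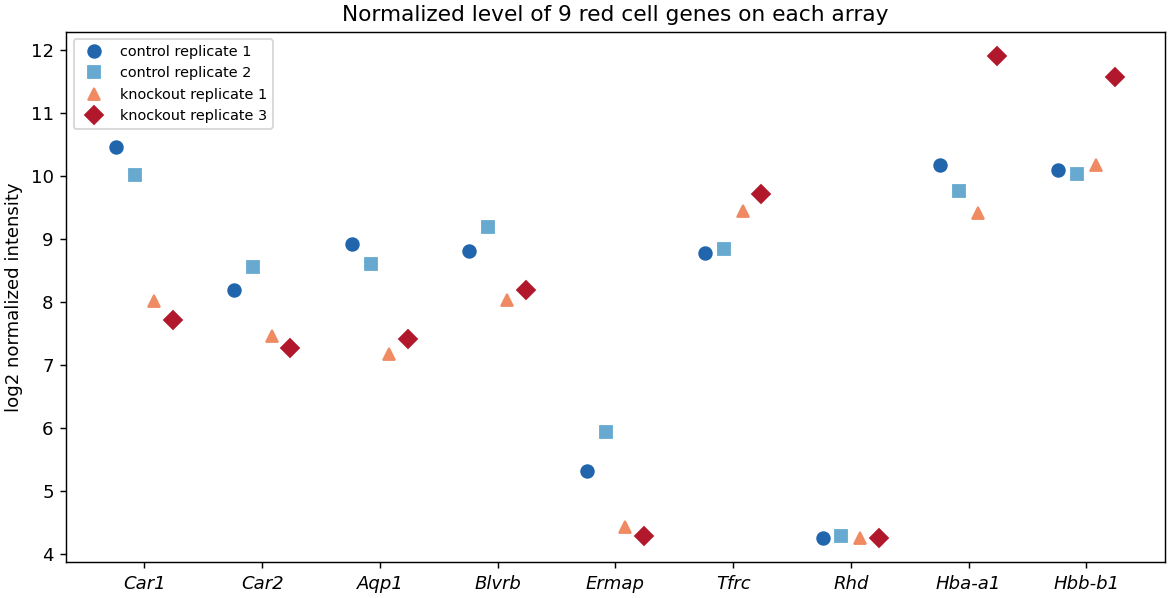
Log2 level after background correction and quantile normalization for the 9 genes (points, 1 per array). Tfrc sits higher in both knockouts, a direction that turned to −0.04 under median scaling, and the globins at 11.90 and 11.57 on knockout replicate 3 stand above the other arrays.

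**Figure D3:**
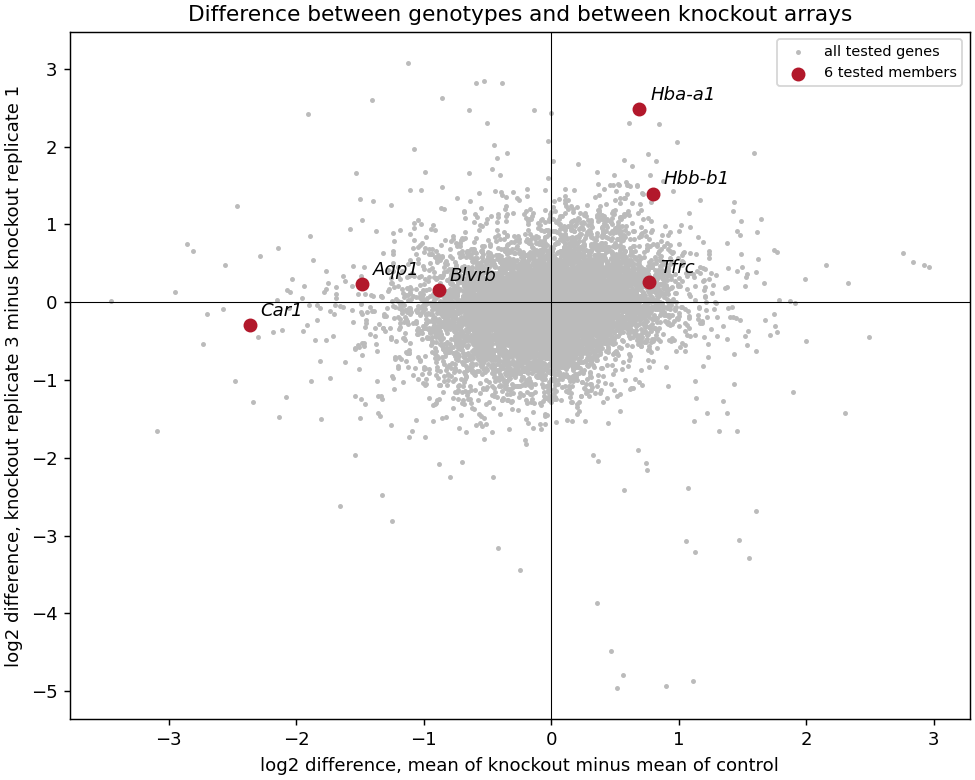
For each tested gene (grey), the log2 difference between genotypes (horizontal axis) against the log2 difference between knockout replicates 3 and 1 (vertical axis), with the 6 tested red cell genes in red. Car1, Aqp1 and Blvrb lie to the left and near 0 on the vertical axis, while Hba-a1 (2.48) and Hbb-b1 (1.40) lie high on it. Under median scaling the horizontal value of Tfrc was −0.04 and that of Hba-a1 −0.03.

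The other genes of the red cell programme were read from 8 lists with 131 genes, of which 123 had a row and 85 were tested. None of the 85 had an adjusted p under 0.05 in limma, while 10 lower and 7 higher genes had an unadjusted p under 0.05, against 8.77% and 6.56% of all tested genes. Median scaling, where the median of all tested genes was at −0.70, called 10 of the 85, beside 940 of all 11538 tested genes.

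Most erythroid regulators had lower levels in the knockouts. Of 18 with a row 16 were tested, 15 had a difference below 0, and 11 were lower without overlap, against 28.1% of all tested genes. The median difference was −0.55, against −0.04 over all tested genes and −0.73 for the 8 tested genes of the LSK gate and stem cells. Klf1, the transcription factor of erythroid genes, was at a log2 level of 7.59 and 7.33 in control cells, against 6.81 and 6.81 in knockout cells (difference −0.65 ± 0.21 SE, limma adjusted p = 0.272). Epor, the erythropoietin receptor, was at 5.44 and 5.75 in control cells, against 5.01 and 5.05 in knockout cells, and was above background on 1 of the 2 knockout arrays. Nfe2, a transcription factor of megakaryocytes and erythroid cells, differed by −0.92 ± 0.22 and Gfi1b, a repressor needed in both lineages, by −1.15 ± 0.26 (limma adjusted p = 0.237 for both). Tspan33, a tetraspanin of erythroid progenitors, differed by −1.42 ± 0.25 (limma adjusted p = 0.190). Bnip3l, which clears mitochondria from maturing red cells, differed by −0.78 ± 0.27. Gata1, the erythroid master regulator, was at 5.10 and 5.12 in control cells, 5.30 on knockout replicate 1, and 4.38 on knockout replicate 3. Its genotypes overlapped.

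Of 19 tested red cell membrane and skeleton genes 10 had a difference below 0 and 9 above it, with a median of −0.20. Without overlap 8 were lower and 2 higher, against 28.1% and 22% of all tested genes. Slc4a1, the band 3 anion exchanger of the mature membrane, followed the globins: its log2 level was 7.21 and 6.49 in control cells, 6.54 on knockout replicate 1, and 8.84 on knockout replicate 3. It was the single gene of this list at least 2-fold above each other array on knockout replicate 3 (3.1-fold, and 1.18-fold under median scaling). Rhag, the Rh-associated ammonia channel, was at 4.87 and 4.58 in control cells, against 4.37 and 4.31 in knockout cells, where it was not above background. Slc14a1, the urea transporter of the red cell, differed by −0.87 ± 0.35, Tspo2, an erythroid membrane protein, by −0.77 ± 0.20 and Tmod1, which caps actin in the skeleton, by 0.67 ± 0.24 (limma adjusted p = 0.326, 0.245 and 0.299).

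The remaining globin genes were at or near background. Of 6 with a row none was tested. Hbb-b2 and Hbq1b, a beta and a theta globin gene, were above background on knockout replicate 3 alone, with intensities there of 113.6 and 113.4 against 82.6 to 99.5 and 84.1 to 96.6 on the other arrays. The embryonic genes Hba-x, Hbb-bh1 and Hbb-y were not above background on any array.

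Iron genes other than Tfrc were split, with 12 of 23 tested genes below 0, 11 above and a median of −0.02. Tfr2, the second transferrin receptor, had a mean level of 7.40 in control cells, against 7.06 in knockout cells (difference −0.34 ± 0.22). Slc11a2, the endosomal iron transporter, and Steap3, the endosomal iron reductase, differed by 0.05 ± 0.23 and 0.32 ± 0.25 and overlapped. Fth1, ferritin heavy chain, was between 12.80 and 12.96 on all 4 arrays. Ftl1, ferritin light chain, was bright, at 9.46 to 9.73, but had a detection p under 0.05 on 1 array and was not tested. Hfe, a regulator of iron uptake that binds the transferrin receptor, was at 4.91 and 4.61 in control cells, against 5.82 and 5.54 in knockout cells (difference 0.92 ± 0.23, limma adjusted p = 0.237). Nfs1, the sulfur donor of iron-sulfur clusters, differed by 0.70 ± 0.25, Ncoa4, which delivers ferritin for breakdown, by −0.68 ± 0.39, and Trf, transferrin, by −0.55 ± 0.31.

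Among heme synthesis enzymes 6 of 9 tested genes were above 0, with a median of 0.14. Alas1, the first enzyme of the pathway in all cells, was at 10.22 and 10.19 in control cells, against 10.91 and 11.34 in knockout cells (difference 0.92 ± 0.23, limma adjusted p = 0.244). Alas2, its erythroid form, was at 5.05, 4.72 and 5.08 on the first 3 arrays and at 5.99 on knockout replicate 3, though under median scaling that array was not the highest. Ppox, a later enzyme of the pathway, differed by −0.61 ± 0.21. Of the enzymes that degrade heme or protect red cells from oxidants 7 of 11 tested were above 0. Blvra, the biliverdin reductase that is not Blvrb, had a mean level of 9.55 in control cells, against 10.10 in knockout cells. Its difference of 0.54 ± 0.21 (limma adjusted p = 0.310) was opposite in sign to that of Blvrb. Prdx2, the peroxiredoxin of red cells, differed by 0.16 ± 0.22, G6pdx by 0.63 ± 0.20, Txn1 by 0.60 ± 0.27 and Hmox2 by 0.41 ± 0.21. The medians of these 2 lists were −0.61 and −0.53 under median scaling, each above the −0.70 of all tested genes.

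Relatives of Car1, Car2 and Aqp1 were mostly not above background. Of 13 other carbonic anhydrases with a row 5 were tested. Car12, a membrane form, was at 6.15 and 5.41 in control cells, against 6.81 and 6.39 in knockout cells (difference 0.82 ± 0.32, limma adjusted p = 0.313), Car13 differed by 0.34 ± 0.23, Car9 by 0.13 ± 0.24 and Car11 by −0.25 ± 0.33. None of these 4 lay below 0 without overlap. Of 11 other aquaporins 2 were tested. Aqp9, a channel for water and glycerol found in myeloid cells, was at 8.81 and 9.27 in control cells, against 8.20 and 8.19 in knockout cells (difference −0.84 ± 0.24, limma adjusted p = 0.253), and Aqp3 differed by −0.08 ± 0.21.

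**Figure D4:**
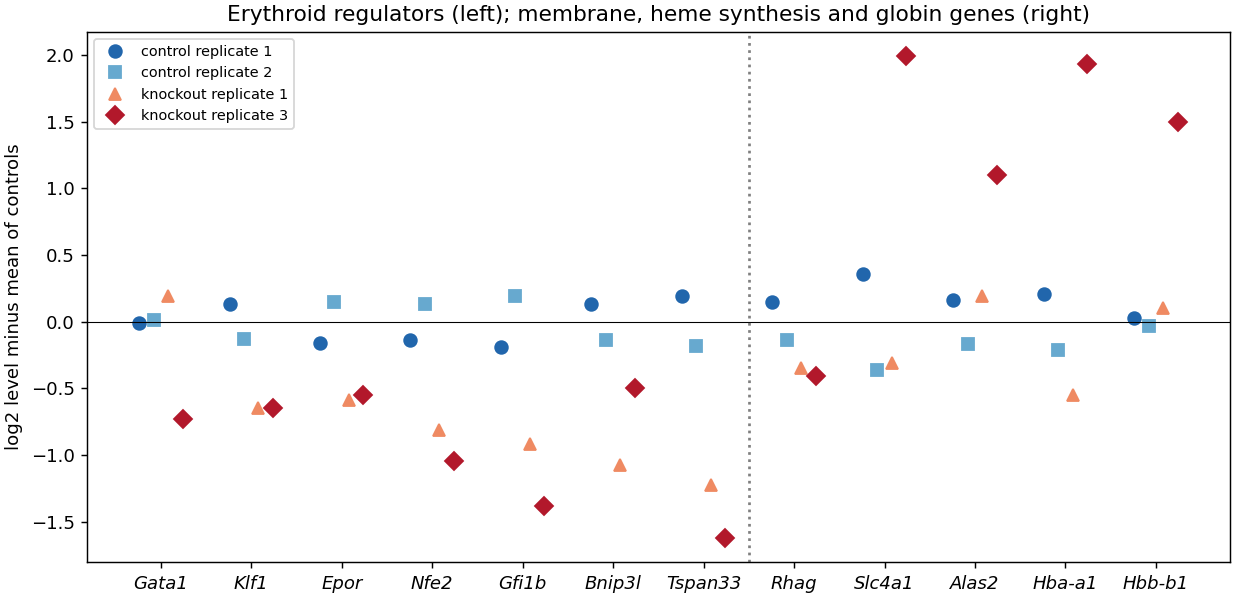
Log2 level minus the mean of the controls for the named erythroid regulators (left of the dotted line) and for named membrane, heme synthesis and globin genes (right), 1 point per array. Klf1, Epor, Nfe2, Gfi1b, Bnip3l and Tspan33 lie below both controls on both knockout arrays, while Slc4a1, Alas2, Hba-a1 and Hbb-b1 are highest on knockout replicate 3. Under median scaling Alas2 was not highest there, and the genotype difference of Hba-a1 turned to −0.03.

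The genes whose pattern over the 4 arrays was most like a given gene were found by the root mean square difference of log2 levels, each centred on its own mean, over 7221 genes above background on all arrays. Nearest to Car1 were Ndn (0.27), Cavin2 (0.30), Slc18a2 (0.33), Rgs1 (0.33) and Bgn (0.34). Nearest to Hba-a1 was Slc4a1 (0.15), then Pdgfrb (0.37), Pin1rt1 (0.38), Cacybp (0.38) and Hbb-b1 (0.41). Slc4a1 thus tracked Hba-a1 more closely than the beta globin row did.

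Markers of other cells also moved between these arrays. The neutrophil list, 14 genes with a row, had a summed level (linear normalized intensity) of 2174 and 5917 in control cells, 18029 on knockout replicate 1, and 1419 on knockout replicate 3. On knockout replicate 1, 9 of its 12 tested genes were at least 2-fold above each other array, where 0.321% of all tested genes were, and on knockout replicate 3 none was. Neutrophil genes thus stood high on the knockout array where the globins did not. The megakaryocyte list, 14 genes with a row, summed to 3084 and 3909 in the controls and to 2362 and 1884 in the knockouts, lower where Car1, Aqp1 and Blvrb were lower. Of its 11 tested genes 10 were lower without overlap, against 28.1% of all tested genes, with a median difference of −1.24. The bright gene Selp, which encodes P-selectin, went the other way, at 7.47 and 9.65 in control cells, against 10.30 and 9.87 in knockout cells. Of 8 tested genes of the LSK gate and stem cells 7 had a difference below 0. Of these 8 genes 4 were lower without overlap, against 28.1% of all tested genes. The stem cell factors Meis1 and Gata2 differed by −1.32 ± 0.34 and −1.18 ± 0.30 (limma adjusted p = 0.245 for both). Granulocyte-monocyte progenitor genes, 13 with a row, summed to 10126 and 9164 in control cells, against 16261 and 22581 in knockout cells. All 13 were tested, of which 10 had a difference above 0 and 3 below it, with a median of 1.07. The 14 monocyte and macrophage genes with a row summed to between 399 and 512 on the 4 arrays. That sum takes in genes not above background on any array, such as Vcam1, Hmox1 and Mertk. Adgre1, a macrophage marker, was above background on 1 array, Cd14 and Ccr2 on 3 and Cd68 on all 4. C1qa, above background on 2 arrays, was at 4.24 and 4.61 in control cells, 4.33 on knockout replicate 1, and 5.52 on knockout replicate 3. Its relatives C1qb and C1qc were not highest on knockout replicate 3. Single genes moved more than that sum: of 8 tested, 2 were lower and 4 higher without overlap, against 28.1% and 22% of all tested genes. Ccr2 differed by 1.42 ± 0.19 and Spic by −0.66 ± 0.20 (limma adjusted p = 0.157 and 0.262). The part of these cells in the red cell values was not tested.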

How the data were processed

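Total RNA of sorted LSK cells was made into biotinylated cRNA for Illumina arrays, with 1 array per pool of mice, per the labels' protocols. Genotype and replicate number come from the sample titles. The authors deposited raw intensity values, 1 per gene name, for 30854 names beside 936 negative control probes, and the deposited bead standard errors are a signal in intensity units, per the file headers. A detection p-value was also deposited, and the file headers do not state how it was computed. How probes were combined, the array type and the software are not given in the sources used here. A deposited table of normalized values was not used, because its probe identifiers could not be paired with genes here. 1 row with annotation text in place of values was left out.

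Names were brought up to date with a RefSeq table (GRCm38.p6). Intensities were background-corrected with the negative controls (normexp, offset 16), quantile-normalized and taken to log2 with neqc (R 4.3.3, limma 3.58.1). A gene with a detection p under 0.05 on at least 2 arrays was tested with lmFit and eBayes (no covariate, two-sided, Benjamini-Hochberg over 11538 genes, threshold 0.05). If several rows shared a gene, the brightest was kept. For Ermap, not above background on either knockout array, the fold sets each of those arrays at the higher of its own value and the lowest value above background. The knockout values of Car2 lay above that lowest value. The folds of Ermap and Car2 are estimates and not bounds. The fit was checked on simulated data. The 9 genes, the other gene lists and the motifs were chosen with earlier results of these data known. From each list the text names the genes past the adjusted threshold, or else the 4 tested genes with the largest differences, plus 15 red cell genes fixed by name, some of which are not reported here. With 2 pools per genotype, p-values and standard errors rest on the spread between pools and on a variance shared over genes (3.72 prior degrees of freedom). Alternatives changed the background correction, the normalization, the detection filter, the variance model and the joining of rows, and left out each array.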

Additional observations from a re-analysis of the deposited data

How the results depend on the processing

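The count of 5 genes lower on both knockout arrays than on both controls held without background correction, with cyclic loess and with median scaling. The count takes in Car2 and Ermap, which fail the detection filter, so dropping that filter could not change it. Of all tested genes, 28.1% were lower and 22% higher without overlap in the main fit. The count was 3 when a detection p under 0.05 was required on all 4 arrays, a filter that Car2 and Ermap do not pass. It lay between 5 and 7 when 1 array was left out. The 6 without control replicate 1 and the 7 without knockout replicate 3 took in Rhd, which is at background. The 7 also took in Hba-a1. The count of 2 higher genes was 0 under median scaling, and 2 to 3 with 1 array left out. Under median scaling the difference of Tfrc turned to −0.04 and that of Hba-a1 to −0.03, against −0.70 for all tested genes, so Tfrc was 0.66 and Hba-a1 0.68 above that shift. With 1 array left out Hba-a1 ranged from −0.55, without knockout replicate 3, to 1.93, without knockout replicate 1. The difference of the dim gene Ermap was −1.27 with background correction and −0.43 without. Over all genes the count past the adjusted threshold of 0 became 3 with cyclic loess, 15 with trend and robust eBayes, 17 with the filter on all 4 arrays and 940 with median scaling, and was 0 under the other alternatives. The cause was not tested. No paired analysis was possible because the genotypes share only replicate number 1. Signal near background limits Ermap and Rhd.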
